A study of Mus musculus with 19 samples.

Results

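The 5 genes that set how a neuron makes, packages, takes back and breaks down GABA, the main inhibitory transmitter of the brain, were followed across single cells picked from the mouse lateral hypothalamic area (LHA). They are Gad1, Gad2, Slc32a1, Slc6a11 and Abat, and each was found under its gene name among 52636 mouse gene rows, so 5 of 5 genes were read. The study holds 19 plates of 96 wells, all of 1 group. The tissue came from 7 male mice, 6 to 8 weeks old, that carried both Agrp-IRES-Cre and the tdTomato reporter Ai9. Red axons of AGRP neurons showed where the LHA lies, and cell bodies without fluorescence were picked by hand, so AGRP neurons themselves are not sampled. All plates share this genotype and there is no treatment. Which mouse a plate came from is not labelled. The 19 plates stand in for replicates although some must share an animal, which can make their p-values too small.

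The comparisons are therefore between kinds of cells on the same plates. Of 1612 wells labelled LHA, 1534 had at least 1000 genes and were kept. Cells with at least 1% of their counts in Pmch, the gene of melanin-concentrating hormone, formed the Pmch class (68 cells, 4.43%). Cells with at least 1% in Hcrt, the gene of the orexins or hypocretins, which sustain wakefulness, formed the Hcrt class (1065 cells, 69.4%). Among cells below both limits, the Slc17a6-leading class had more counts of Slc17a6, the vesicular glutamate transporter, than of Slc32a1 (60 cells, 3.91%), and the remaining class held the others (338 cells, 22.0%). The remaining class includes 133 cells with no count of either transporter. A further 3 cells passed both peptide limits and were set apart. Since Slc17a6 and Slc32a1 define the Slc17a6-leading and remaining classes, their values in those 2 classes are descriptions and were not tested.

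GABA is made from glutamate in 1 step by glutamate decarboxylase. Gad1 encodes the form found through the whole cell body, and Gad2 the form anchored to vesicles in axon terminals. Slc32a1 encodes the vesicular transporter that loads GABA and glycine into synaptic vesicles, and a neuron with a Gad gene but no Slc32a1 lacks the transcript of the usual loading step. Slc6a11 encodes a plasma membrane GABA transporter best known from astrocytes, and Abat encodes the mitochondrial transaminase that breaks GABA down. Orexin neurons are known mainly as glutamatergic cells, and the transmitter of neurons with melanin-concentrating hormone has been debated because they carry Gad1.

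In GRCm38 coordinates with the GENCODE M21 annotation, 3 of the genes lie on chromosome 2, all on the plus strand: Gad2 (22622205 to 22693874), Gad1 (70553072 to 70602014) and Slc32a1 (158610767 to 158615748). Slc6a11 lies on chromosome 6 (114131241 to 114249952) and Abat on chromosome 16 (8513429 to 8621568). Use of strand in the counting is not given in the sources used here, but the overlapping antisense genes held few counts over the kept wells, 22 for Gad1os against 8523 for Gad1, and 5 for Gm14205 against 589 for Slc32a1. A processed pseudogene within Slc6a11, Gm8132, held 3 counts against 360 for Slc6a11.

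The 3 genes of synthesis and packaging did not share one pattern over the classes, so the 250 bases before the RefSeq start of each are shown for comparison (GRCm38.p6, plus strand), for Gad1 at chr2:70561879-70562128, for Gad2 at chr2:22622077-22622326 and for Slc32a1 at chr2:158610508-158610757. Capitals mark a match, on either strand, to TATAAA, to the GC box GGGCGG or to the homeodomain motif TAATTA, which do not overlap in these windows.
Gad1: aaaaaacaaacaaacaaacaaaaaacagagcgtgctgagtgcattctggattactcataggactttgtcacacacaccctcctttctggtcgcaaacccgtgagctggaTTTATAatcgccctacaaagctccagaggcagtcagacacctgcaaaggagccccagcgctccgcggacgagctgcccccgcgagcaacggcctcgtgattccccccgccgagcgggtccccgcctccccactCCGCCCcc
Gad2: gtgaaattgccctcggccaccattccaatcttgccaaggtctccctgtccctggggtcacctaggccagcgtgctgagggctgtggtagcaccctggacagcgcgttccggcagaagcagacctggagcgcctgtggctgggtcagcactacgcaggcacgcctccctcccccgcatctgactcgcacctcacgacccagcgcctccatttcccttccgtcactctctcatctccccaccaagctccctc
Slc32a1: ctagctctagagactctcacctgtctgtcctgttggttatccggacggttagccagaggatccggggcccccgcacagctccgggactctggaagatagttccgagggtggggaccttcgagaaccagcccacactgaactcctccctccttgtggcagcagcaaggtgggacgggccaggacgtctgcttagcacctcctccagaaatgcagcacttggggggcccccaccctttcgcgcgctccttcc
The Gad1 window held TATAAA on the opposite strand, 141 bases before the start, and GGGCGG on the opposite strand, 8 bases before it. The Gad2 and Slc32a1 windows held none of these letters. Over 32851 mouse promoters of the same length, 12.4% held TATAAA, 32.7% held GGGCGG and 4.84% held TAATTA. The matches describe the windows and are not evidence of binding. The RefSeq starts used here differ from the GENCODE gene starts given above. The Gad1 window lies inside the stated span of Gad1, and the Gad2 window runs past the stated start of Gad2.

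Depth differed between the classes. The median cell had 59063 counts in the Pmch class, 24437.5 in the remaining class, 25358.5 in the Slc17a6-leading class and 45722 in the Hcrt class. Counts are called UMIs below, from the molecular identifier in read 1 of the Smart-SCRB method. Shares of cells are therefore given after thinning each cell to 18000 UMIs, which left 67 Pmch, 261 remaining, 48 Slc17a6-leading and 1003 Hcrt cells, and levels are given as CPM, the UMIs summed per plate and class and scaled to a common library total, on plates with at least 3 such cells. Over the plates the median cell had 20676.5 to 95062.5 UMIs. All 8 pan-neuronal genes were detected in each of the 4 classes. A total of 24 wells failed a neuron gate (at least 5 of the 8 pan-neuronal genes, and more of them than of any glial or vascular list), of which 10 were in the remaining class, 1 in the Slc17a6-leading class and 13 in the Hcrt class. Wells without a cell set the background: in the wells labelled ERCC (64), Empty (21) and empty (19), leaving out 1 deep well labelled Empty, there was 1 UMI of Gad1, 2 of Gad2, 0 of Slc32a1, 0 of Slc6a11 and 2 of Abat, at a median of 169 UMIs per well. Wells labelled qRNA, whose content is not stated, had a median of 18251 UMIs, close to the thinned depth, and held Gad1 in 3, Gad2 in 1, Slc32a1 in 0, Slc6a11 in 1 and Abat in 6 of 68 wells.

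**Figure D1:**
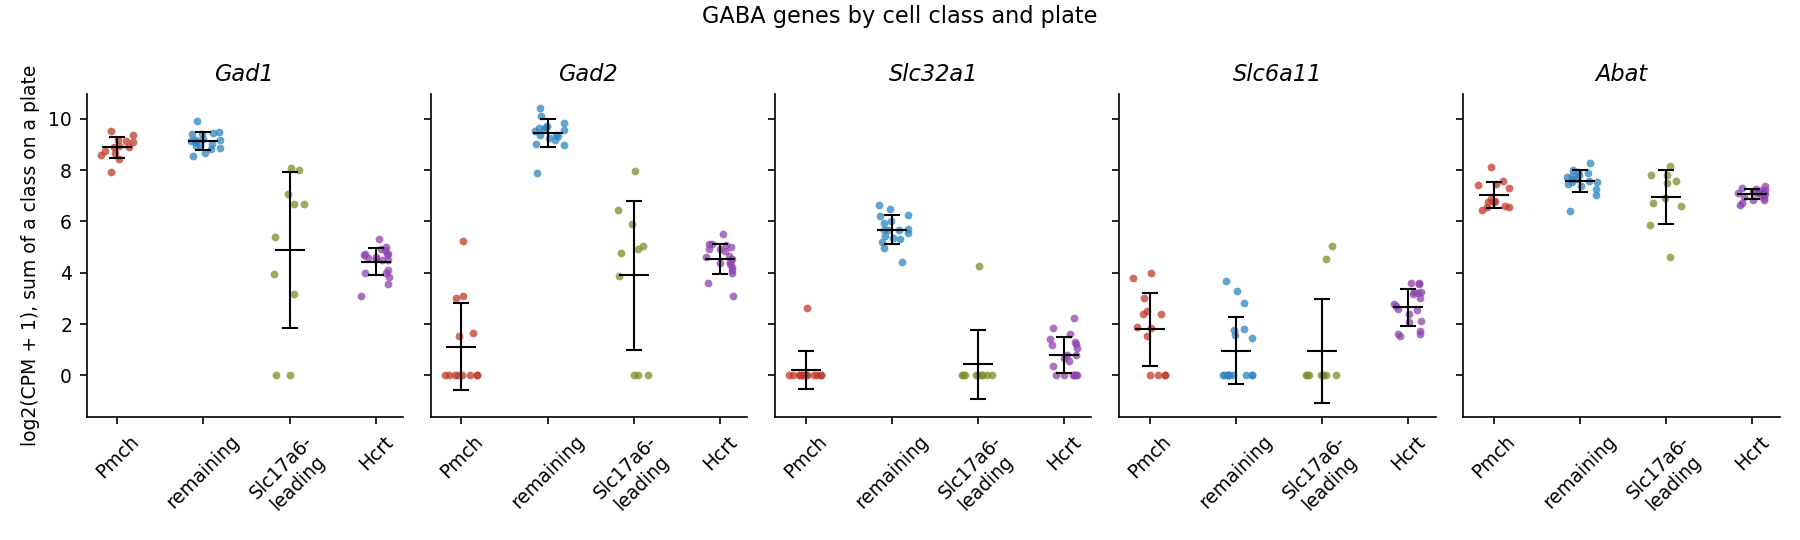
Level of the 5 genes by cell class. Each point is 1 plate, as log2(CPM + 1) of the UMIs summed over the cells of a class, and black marks give the mean and SD over 13 Pmch, 17 remaining, 10 Slc17a6-leading and 19 Hcrt plates; Gad1 is high in Pmch and remaining cells, Gad2 and Slc32a1 in remaining cells, and Abat lies at a similar height in all 4 classes.

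Pmch neurons carried Gad1 at a high level with almost no Gad2 and almost no Slc32a1. Gad1 was detected in 67 of 68 Pmch cells, with a median of 22.5 UMIs per cell, whereas Gad2 was detected in 5 and Slc32a1 in 1. Against Hcrt neurons on the same 13 plates, Gad1 was higher and Gad2 lower. Of the 3 genes tested in this comparison, 1 rose, 1 fell and 1 did not pass. Over all 7794 genes tested, 30.6% were called in either direction (13.2% higher, 17.4% lower). Gad2 had 20 UMIs in Pmch cells and 908 in Hcrt cells on these plates. It passed the filter on low counts mainly through Hcrt cells, where it is higher, so its direction is a description. With limma on the mean CPM of cells, which changes the summing, the test and the genes tested as well as the scaling, 970 genes were higher and 2569 lower, beside 1026 and 1360 here, and with DESeq2-type size factors in edgeR 974 were higher and 1456 lower.

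Gad1 ranged over Pmch plates from 242 to 735 CPM with a median of 483, against 7.62 to 38.7 CPM with a median of 23.0 over Hcrt plates. The ranges did not overlap. The log2 fold change, Pmch over Hcrt, was 4.41 ± 0.13 (SE, adjusted p = 1.89e-27), higher in 13 of 13 plates. At equal depth Gad1 was found in 98.5% of Pmch cells (exact 95% interval 92.0 to 99.96) and 15.5% of Hcrt cells (13.3 to 17.8), and a thinned Pmch cell held a median of 9 Gad1 UMIs with quartiles of 6 and 12. The 1 Pmch cell without Gad1, on replicate 12, was also the shallowest of the class, at 17293 UMIs.

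Gad2 was at 0 on 8 of the 13 Pmch plates and at most 36.5 CPM, against 7.49 to 44.9 CPM over Hcrt plates. Its log2 fold change, Pmch over Hcrt, was −2.90 ± 0.57 (adjusted p = 7.77e-05), lower in 12 of 13 plates. The exception was replicate 18, where a single deep Pmch cell of 127473 UMIs held 14 of the 20 Gad2 UMIs of the class and both of its Slc32a1 UMIs, beside 52 UMIs of Gad1. After thinning, Gad2 was seen in 3 of 67 Pmch cells (4.48%, 0.933 to 12.5), with 1 UMI in each, and at 2 UMIs or more in 0 of 67, which allows a share of up to 4.48%. With Gad2 in 1 of 68 qRNA wells, a share of Pmch cells above background was not detectable at this depth.

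Slc32a1 was listed at 0 on 12 of 13 Pmch plates. It had 2 UMIs in 4373632 over the class, against 52 in 53700608 over Hcrt cells, a ratio of 0.472 in Pmch over Hcrt cells with an exact counting interval of 0.0557 to 1.79. At equal depth Slc32a1 was found in 0 of 67 Pmch cells, which allows a share of up to 4.48%, and in 13 of 1003 Hcrt cells (1.30%, 0.692 to 2.21). A difference in Slc32a1 between the 2 peptide classes was not detectable at this depth.

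The contrast with the remaining class separated the 2 Gad genes further. Gad1 averaged 489 ± 133 CPM in Pmch cells and 602 ± 151 CPM in remaining cells (SD, n = 13 plates each), with overlapping ranges. Its log2 fold change, Pmch over remaining, was 0.03 ± 0.12 (adjusted p = 0.892) after the trimmed-mean scaling of edgeR (TMM), higher in 7 and lower in 6 of 13 plates. Over the alternatives the fitted values ran from −0.26 to 0.09 and changed sign, and none passed. Gad2 averaged 4.24 ± 10.1 CPM in Pmch cells and 751 ± 275 CPM in remaining cells. Its log2 fold change was −6.81 ± 0.45 (adjusted p = 1.62e-08), lower in 13 of 13 plates, and −8.21 without replicate 18. So 1 of 3 tested genes fell, against 32.8% of 4431 genes called (16.9% higher, 15.9% lower). Gad2 had 20 UMIs in Pmch cells and 4098 in remaining cells on these plates. It passed the filter on low counts through remaining cells, where it is high, so its direction is a description. The limma split was 523 higher and 1911 lower, beside 747 and 706. Slc32a1, described only, was 124 times higher in remaining than in Pmch cells by summed CPM (counting interval 34.2 to 1026).

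**Figure D2:**
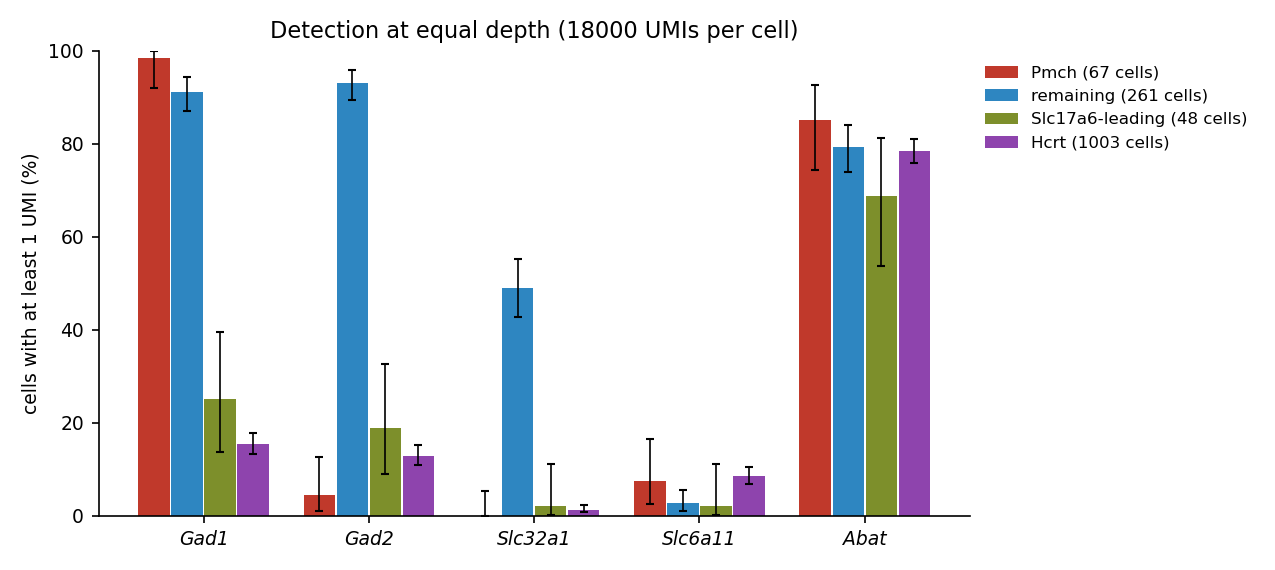
Share of cells with at least 1 UMI of each gene after every cell was thinned to 18000 UMIs, with exact 95% intervals. Gad1 is found in 98.5% of Pmch and 91.2% of remaining cells, Gad2 in 93.1% of remaining cells, and Slc32a1 in 49.0% of remaining cells and at most 2.08% of any other class.

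Co-detection in single cells showed the same division. At equal depth 63 of 67 Pmch cells (94.0%, 85.4 to 98.3) had Gad1 alone and 0 had Gad2 alone. In the remaining class 235 of 261 cells (90.0%, 85.7 to 93.4) had both Gad genes, 3 had Gad1 alone and 8 had Gad2 alone. Of 63 Pmch cells with Gad1 alone, 32 (50.8%) also had Slc17a6, so Gad1 and the glutamate transporter occurred in the same cells. The 3 cells that passed both peptide limits had 48, 23 and 35 UMIs of Gad1 and 0 of Gad2 and Slc32a1 in each, at 118729 to 218482 UMIs per cell. Slc17a6 itself averaged 54.0 ± 32.6 CPM in Pmch cells and 133 ± 22.3 CPM in Hcrt cells, a log2 fold change of −1.32 ± 0.19 (adjusted p = 2.80e-07), lower in 13 of 13 plates.

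**Figure D3:**
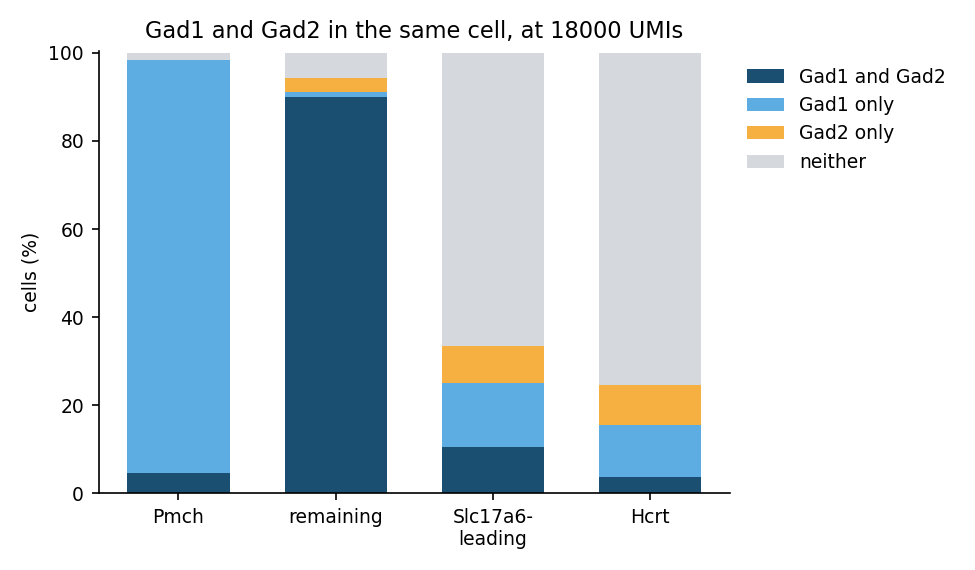
Cells with both Gad genes, 1 of them or neither, as a percent of each class at 18000 UMIs per cell (67 Pmch, 261 remaining, 48 Slc17a6-leading and 1003 Hcrt cells). Gad1 alone makes up 94.0% of Pmch cells and both genes together 90.0% of remaining cells, whereas 66.7% of Slc17a6-leading and 75.4% of Hcrt cells have neither.

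In Pmch over Hcrt cells 30.6% of all genes were called (13.2% higher, 17.4% lower), the share to set beside the list counts here. Of 11 other genes of GABA metabolism and transport, 4 were tested and 1 fell in Pmch cells, near that share. It was Aldh5a1, which encodes the dehydrogenase that follows Abat. It averaged 13.3 ± 11.2 CPM in Pmch cells and 30.2 ± 8.75 CPM in Hcrt cells (log2 −1.30 ± 0.35, adjusted p = 0.00346, lower in 11 of 13 plates). The median log2 fold change of the list was −0.50, beside −0.11 over all genes tested. Among 12 genes that supply glutamate and glutamine 8 were tested, 2 rose and 3 fell, with a median of −0.52. The glutamine importer Slc38a1 averaged 77.2 ± 27.6 CPM in Pmch cells and 178 ± 16.1 CPM in Hcrt cells (log2 −1.23, adjusted p = 5.51e-09). Glud1, glutamate dehydrogenase, fell by 0.80 (adjusted p = 0.00576), and the neuronal glutamate transporter Slc1a1 rose by 1.15 (adjusted p = 0.00191). None of the 7 tested genes of Gad anchoring and synaptic vesicles passed. Astrocyte markers summed to 183 CPM in Pmch cells (plates 89.3 to 400) and 119 CPM in Hcrt cells (97.2 to 146), and oligodendrocyte markers to 19.7 CPM (0 to 45.3) and 379 CPM (29.1 to 1570). Of the 8 astrocyte markers Ntsr2 was at 0 in Pmch cells, and of the 8 oligodendrocyte markers Mog and Ermn were, while Mbp fell by 5.44. Within the neuron gate the changes of Gad1 and Gad2 were as large, and Gad2 fell by 2.92.

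In Pmch over remaining cells, of 8 genes of Gad anchoring and vesicles, all tested, 1 rose and 3 fell, beside 32.8% of all genes called, with a median of −0.29 beside −0.04 over all genes. Sv2c, a synaptic vesicle glycoprotein, averaged 4.84 ± 5.74 CPM in Pmch cells and 183 ± 67.7 CPM in remaining cells (log2 −4.74 ± 0.35, adjusted p = 4.53e-14). With 24 UMIs in Pmch cells and 891 in remaining cells, Sv2c passed the filter on low counts through remaining cells. Its direction is therefore a description. The calsyntenin Clstn3 fell by 0.85 and Sv2a by 0.37, and the chaperone Hspa8 rose by 0.56 (adjusted p = 0.00251, 0.0141 and 4.06e-08). Of 14 transcription factors of GABAergic lineages 2 were tested and both fell. Both passed the filter on low counts through remaining cells, where they are high, so their shared direction is a description. Dlx1 averaged 0.768 ± 2.204 CPM in Pmch cells and 93.0 ± 24.99 CPM in remaining cells (log2 −5.90, adjusted p = 2.13e-12), and Isl1 22.6 ± 23.4 and 170 ± 99.7 CPM in the same order (log2 −2.65, adjusted p = 4.11e-05). Both of the other tested genes of GABA metabolism and transport missed the threshold.

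The remaining class held both Gad genes and Slc32a1. Against Hcrt cells on 17 plates, Gad1 and Gad2 both rose, and Abat did not pass, so 2 of 3 tested genes rose, against 36.8% of 9394 genes called (16.2% higher, 20.6% lower). The limma split was 2027 higher and 952 lower, beside 1524 and 1935, and with DESeq2-type size factors in edgeR it was 1672 and 1779. Gad1 ranged over plates from 370 to 970 CPM in remaining cells, against 7.62 to 38.7 CPM in Hcrt cells, and its log2 fold change was 4.26 ± 0.10 (adjusted p = 2.89e-38). Gad2 ranged from 238 to 1362 CPM in remaining cells, against 7.49 to 44.9 CPM in Hcrt cells, with a log2 fold change of 4.55 ± 0.14 (adjusted p = 1.33e-21). Both were higher in 17 of 17 plates and their ranges did not overlap. Slc32a1, which helped to define the remaining class, averaged 53.7 ± 20.6 CPM there and 0.928 ± 1.06 CPM in Hcrt cells on these plates.

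In remaining over Hcrt cells, of 14 lineage factors 3 were tested and 3 rose, with a median of 5.82 beside −0.04 over all genes. These factors passed the filter on low counts through remaining cells, where they are high. Their shared direction was therefore set by the filter and is a description. Dlx5 averaged 24.2 ± 15.3 CPM in remaining cells and 0.256 ± 0.387 CPM in Hcrt cells (adjusted p = 3.98e-15). Of the 8 genes of Gad anchoring and vesicles 4 rose and 2 fell, beside 36.8% of all genes called, led by Sv2c at 169 ± 64.3 CPM in remaining cells and 11.2 ± 4.16 CPM in Hcrt cells (log2 3.48, adjusted p = 1.64e-23). Of the 2 that fell, Atp6v0a1 averaged 283 ± 146 CPM in remaining cells and 286 ± 93.7 CPM in Hcrt cells (log2 −0.48, adjusted p = 1.19e-05). Of 9 tested genes of glutamate and glutamine supply 4 rose and 0 fell, among them Gls2, a glutaminase, at 44.2 ± 31.0 CPM in remaining cells and 2.55 ± 1.60 CPM in Hcrt cells (log2 3.71, adjusted p = 9.13e-14). Of 6 tested genes of GABA metabolism and transport Aldh9a1, an aldehyde dehydrogenase that can form GABA from putrescine, rose by 0.69 (adjusted p = 0.00254). The taurine transporter Slc6a6 fell by 0.56 (adjusted p = 0.0154) after TMM scaling. Before it, Slc6a6 averaged 46.2 ± 26.0 CPM in remaining cells and 54.4 ± 9.73 CPM in Hcrt cells. Pooled over plates it was 56.4 and 54.5 CPM in the same order, so that measure showed no fall. Astrocyte markers summed to 504 CPM in remaining cells (plates 167 to 629) and 119 CPM in Hcrt cells (97.2 to 146), most of it Aldoc, which rose by 1.66 and is also found in neurons. Their part in these results was not tested.

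Slc17a6-leading cells held Gad genes in a minority. At equal depth 12 of 48 cells had Gad1 (25%, 13.6 to 39.6) and 18.8% had Gad2 (8.95 to 32.6), and 32 cells had neither. Gad1 was 0 to 269 CPM over 10 plates with a median of 70.9, and Gad2 0 to 251 CPM with a median of 27.8, so plates differed widely. Remaining cells over Slc17a6-leading cells gave log2 fold changes of 2.83 ± 0.53 for Gad1 (adjusted p = 0.0368) and 4.16 ± 0.50 for Gad2 (adjusted p = 0.00230), each in 10 of 10 plates. So 2 of 3 tested genes rose, against 1.30% of 4604 genes called (0.891% higher, 0.413% lower), and limma gave 139 higher and 24 lower, beside 41 and 19. On these plates Gad1 and Gad2 had 136 and 67 UMIs in Slc17a6-leading cells, against 3719 and 4779 in remaining cells. Both passed the filter on low counts through remaining cells, where they are high, so their shared direction is a description. The Gad1 call was lost when any of 7 of the 10 plates was left out (replicates 2, 4, 8, 9, 11, 14 and 18), with an adjusted p of at most 0.0947. It was also lost with no filter on low counts (3.10, adjusted p = 0.0655), with limma (4.39, adjusted p = 0.0717) and with peptide limits of 5% and 0.5% (2.94, adjusted p = 0.161). Dlx1 and Isl1, the 2 lineage factors tested, were also higher in remaining cells, by 3.04 and 3.24 (adjusted p = 0.00109 and 1.43e-05). Here too both passed the filter on low counts through remaining cells, so their shared direction is a description. Oligodendrocyte markers summed to 164 CPM in remaining cells (plate median 59.6) and 1396 CPM in Slc17a6-leading cells (plates 8.98 to 11721, median 90.8), so 1 plate held most of them, and their part in these results was not tested.

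Slc17a6-leading cells over Hcrt cells gave no call among the 3 genes tested, against 13% of 7504 genes called (2.59% higher, 10.4% lower). The split was 291 higher and 561 lower with DESeq2-type size factors in edgeR, and 378 and 587 with limma, beside 194 and 778. Gad1 averaged 91.9 ± 100.8 CPM in Slc17a6-leading cells and 23.1 ± 8.13 CPM in Hcrt cells (log2 1.18 ± 0.51, adjusted p = 0.132, higher in 6 of 10 plates). The call turned without replicate 3 (log2 1.49) or replicate 8 (1.44), and without the plate block (1.55, adjusted p = 0.00427). Gad2 averaged 49.9 ± 76.1 and 24.1 ± 10.3 CPM in the same order, with a log2 fold change of −0.07 ± 0.53 (adjusted p = 0.961) that was 0.60 without the plate block. Among the lists, Got1 and Got2, both aspartate aminotransferases, were higher in Slc17a6-leading cells and Hspa8 was lower, and none of the 4 tested genes of GABA metabolism and transport passed.

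Hcrt neurons as a class had little of either Gad gene, but a subset held Gad2 well above background. At equal depth 129 of 1003 Hcrt cells had a Gad2 UMI (12.9%, 10.9 to 15.1) and 78 had at least 2 (7.78%). The share with at least 2 ran from 0 to 16.7% over 19 plates with a median of 7.14%, and 1 plate had none. Gad1 at 2 or more UMIs was found in 87 cells (8.67%), with 1.28 to 16.7% over plates. At least 2 UMIs of both were found in 18 cells (1.79%). The 78 Gad2-positive cells had 939 Gad2 UMIs in all, a median of 9 per cell, and up to 47 were counted in 1 Hcrt cell.

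In the Gad2-positive Hcrt cells Hcrt took a median of 12.6% of their UMIs, against 13.8% in the 874 Hcrt cells with no Gad2 UMI after thinning, and 76 of the 78 had at least 5% in Hcrt. The next 2 shares are of unthinned cells, and the Gad2-positive cells were deeper. Slc17a6 was detected in 73 of the 78 (93.6%), against 89.5% of the Gad2-zero cells. Slc32a1 was detected in 7 of the 78 (8.97%, with 22 UMIs), against 17 of 874 (1.95%, with 22 UMIs). With no filter on low counts its log2 fold change was 2.15 ± 1.01 (adjusted p = 0.604), so no difference was called. The lineage factors summed to 20.5 CPM in Gad2-positive cells and 9.36 CPM in Gad2-zero cells. Cells near the peptide limit, read unthinned, bear on this description. Of 44 cells with 0.5 to 1% of Hcrt, which lie outside the class, 36 had Gad2 and 22 had Slc32a1. Inside the class, 2 of the 5 cells with 1 to 2% had Gad2 and 0 had Slc32a1. Of the 15 cells with 2 to 5%, 4 had Gad2 and 4 had Slc32a1 (26.7%), so such cells also lie within the Hcrt class.

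Gad1 rose in the Gad2-positive Hcrt cells. On 13 plates, Gad1 averaged 63.8 ± 59.5 CPM in Gad2-positive cells and 16.9 ± 5.81 CPM in Gad2-zero cells, with a log2 fold change of 1.51 ± 0.31 (adjusted p = 0.0050) and 12 of 13 plates higher. Before thinning, 36 of 78 Gad2-positive cells (46.2%) and 165 of 874 Gad2-zero cells (18.9%) had a Gad1 UMI. These shares are not at equal depth, as the Gad2-positive cells had a median of 55156 UMIs against 46443.5. Abat averaged 150 ± 31.5 and 132 ± 20.7 CPM in the same order and did not pass (log2 0.17 ± 0.11, adjusted p = 0.696). So 1 of 2 tested genes of the set rose, against 1.02% of 7834 genes called (0.281% higher, 0.740% lower), or 40 higher and 195 lower with limma. The call for Gad1 missed the threshold where at least 5 cells per plate were required (1.496, adjusted p = 0.0573), which leaves 7 plates, and where cells needed 5 Gad2 UMIs to count as positive (2.07, adjusted p = 0.718).

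Few other genes moved with Gad2 in Hcrt neurons: 22 rose and 58 fell, leaving out Gad2 itself. The peptide gene Nts averaged 472 ± 298 CPM in Gad2-positive cells and 97.7 ± 69.2 CPM in Gad2-zero cells (log2 2.28 ± 0.32, adjusted p = 0.00345, higher in 12 of 13 plates). Cbln2, a secreted organiser of synapses, averaged 75.8 ± 23.0 and 26.7 ± 17.5 CPM in the same order (1.64 ± 0.27, adjusted p = 0.000426). Cnr1, the cannabinoid receptor, and Cidea, a protein of lipid droplets, rose by 1.41 and 1.14 (adjusted p = 0.0306 and 0.000426). These and Gad1 were the 5 genes that met the naming rule upward. The call for Nts was lost with limma on the mean CPM of cells (1.99, adjusted p = 0.128), and that for Cbln2 at 5 Gad2 UMIs (1.88, adjusted p = 0.301).

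More genes were lower. Calb2, the calcium-binding protein calretinin, averaged 69.6 ± 50.4 CPM in Gad2-positive cells and 342 ± 99.3 CPM in Gad2-zero cells (log2 −2.33 ± 0.29, adjusted p = 0.00120, lower in 13 of 13 plates). The phosphodiesterase Pde3a, at 5.15 ± 5.64 and 23.3 ± 5.54 CPM in the same order, was also lower in 13 of 13 plates (adjusted p = 0.00170). Car8 (log2 −2.53), Lypd1 (−2.49), Shisa6 (−1.97), Mmd2 (−1.93) and the transcription factor Foxp2 (−1.92) were lower too. The opioid peptide gene Pdyn fell by 0.66 (adjusted p = 0.00345), and Got1 rose by 0.43 (adjusted p = 0.00291). The call for Calb2 was lost where at least 5 cells per plate were required (−2.02, adjusted p = 0.169), and that for Pdyn at 5 Gad2 UMIs (−0.64, adjusted p = 0.4996).

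The 2 sets of Hcrt cells differed in other measures. Gad2-positive cells were deeper, with a median of 55156 UMIs against 46443.5. Their oligodendrocyte markers summed to 41.5 CPM (plates 10.3 to 111.8, median 30.8), against 446 CPM (22.5 to 1757, median 55.0) in Gad2-zero cells. With cells in the neuron gate alone 22 genes rose and 57 fell, and with cells thinned to 18000 UMIs 18 rose and 34 fell. Astrocyte markers summed to 121 and 116.3 CPM in Gad2-positive and Gad2-zero cells. The part of depth and of glial RNA in single genes was not tested.

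**Figure D4:**
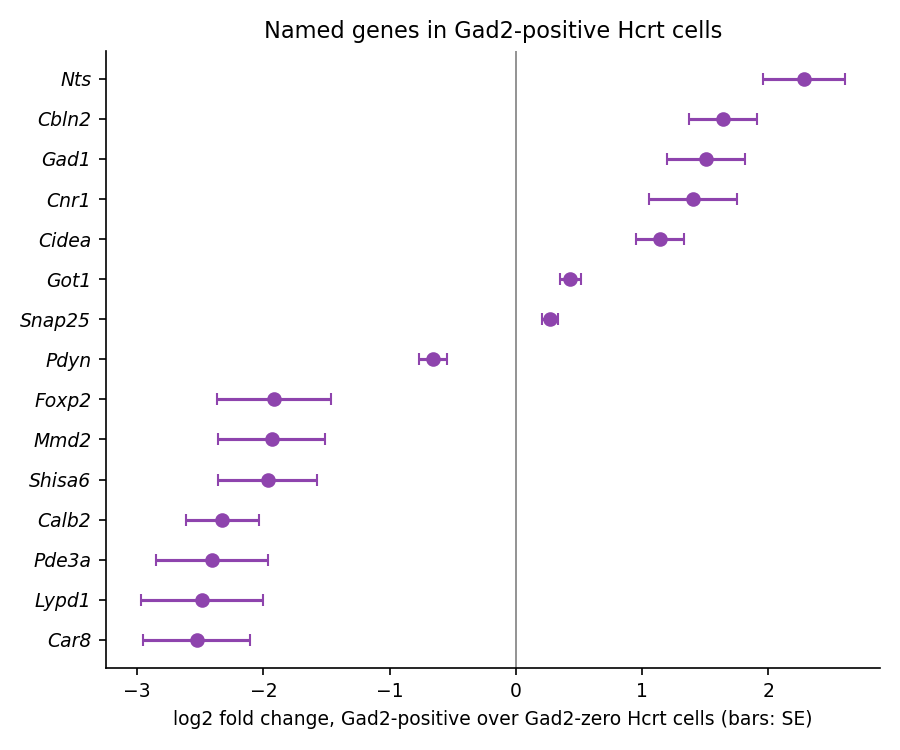
Log2 fold change with SE of the genes described, Gad2-positive over Gad2-zero Hcrt cells, from 13 plates. Genes to the right of 0 are higher in Gad2-positive cells: Nts reaches 2.28 and Gad1 1.51, and Car8 is lowest at −2.53.

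Gad1-only and Gad2-only Hcrt cells were then compared, a choice made after the values above were seen. At a limit of 2 thinned UMIs of one gene and 0 of the other, 65 cells had Gad1 only (median 42290 UMIs), 50 had Gad2 only (61353) and 756 had neither (46826). Gad1-only cells over cells with neither gave 2 calls on 12 plates (0.0323% of 6200 genes, 0% higher and 0.0323% lower), with 341 genes at an unadjusted p under 0.05. Those 2 calls became 0 with DESeq2-type size factors or without the plate block, 20 with limma and 217 with no filter on low counts, and Nts was called with DESeq2 (−3.03, adjusted p = 0.0257). Gad2-only cells over cells with neither gave 40 calls on 8 plates (0.511% of 7830 genes, 0.166% higher and 0.345% lower), which became 19 with at least 5 cells per plate, 91 with limma and still more with no filter. There Nts averaged 417 ± 151 CPM in Gad2-only cells and 113.9 ± 48.1 CPM in cells with neither (log2 1.91 ± 0.16, adjusted p = 4.38e-11, 8 of 8 plates higher), and the growth factor gene Bdnf 360 ± 174 and 143 ± 39.7 CPM in the same order (1.27 ± 0.14, adjusted p = 8.69e-08). Set against each other directly on 5 plates, Gad2-only over Gad1-only cells, 9 of 3899 genes were called (0.231%, 0.128% higher and 0.103% lower). Nts averaged 377 ± 157 CPM in Gad2-only cells and 17.2 ± 26.4 CPM in Gad1-only cells (log2 4.54 ± 0.44, adjusted p = 6.85e-06, 5 of 5 plates higher). Calb2 averaged 62.5 ± 54.5 CPM in Gad2-only cells and 499 ± 271 CPM in Gad1-only cells (−2.86 ± 0.32, adjusted p = 4.80e-05, 5 of 5 plates lower). Left-out plates moved the 9 calls to 2 (without replicate 7) and 14 (without replicate 1). Abat passed in none of these 3 comparisons.

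Slc32a1 missed many cells that held Gad transcripts. Taking 5 or more UMIs of Gad1 and Gad2 together as Gad-positive, 548 cells of the 4 classes qualified, and 334 of them (60.9%) had no Slc32a1 UMI. In the Pmch class 65 of 66 Gad-positive cells had none, in the remaining class all but 203 of 315, in the Slc17a6-leading class 11 of 12, and in the Hcrt class 146 of 155. Conversely, of 205 remaining cells with Slc32a1, 203 were Gad-positive, whereas of 26 Hcrt cells with Slc32a1, 9 were Gad-positive and 11 had no UMI of either Gad gene.

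Outside the peptide classes the share of misses was lower in deeper cells. Among 327 Gad-positive cells, 204 had Slc32a1 and 123 (37.6%) had none, and the median depth was 20800 UMIs in Slc32a1-zero cells and 28192 UMIs in Slc32a1-positive cells. From the shallowest to the deepest of 4 bins of these cells, Slc32a1 was detected in 42.7% (31.8 to 54.1), 58.0% (46.5 to 68.9), 68.3% (57.1 to 78.1) and 80.5% (70.3 to 88.4). The level stayed between 53.4 and 69.8 CPM in the same bins with overlapping intervals, or about 1 UMI in a cell of 18000. Read at equal depth, 128 of 249 Gad-positive cells (51.4%) had Slc32a1. Of the 123 cells without it, 11 were Slc17a6-leading cells, a class whose rule needs Slc17a6 above Slc32a1. The cause of the misses was not tested.

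**Figure D5:**
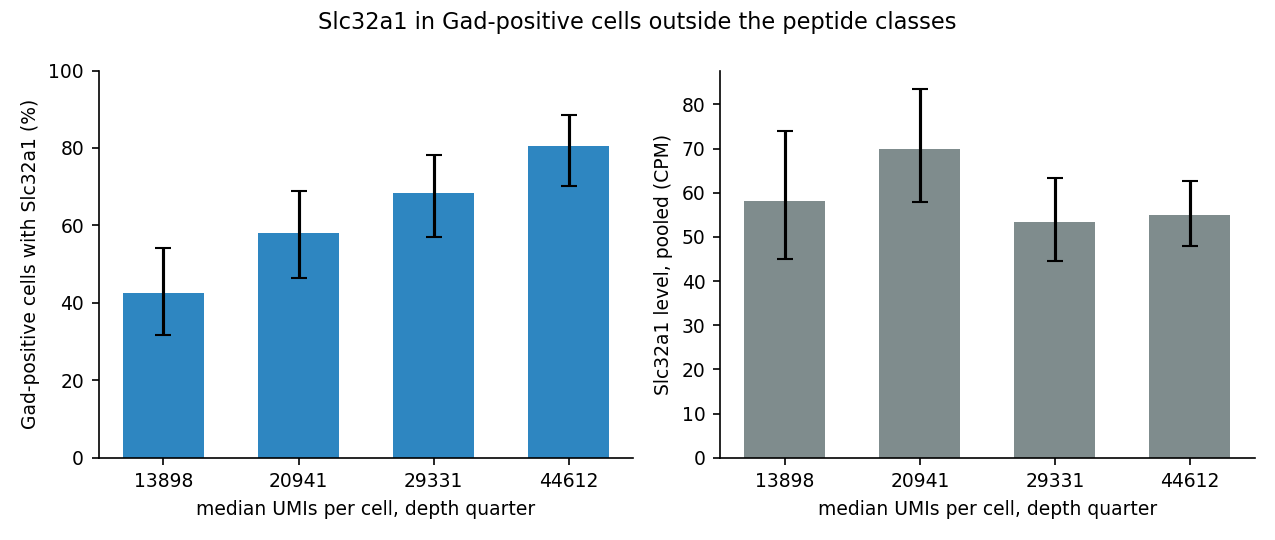
Slc32a1 in the 327 Gad-positive cells outside the peptide classes, in 4 bins by depth, labelled by the median UMIs per cell. Left, share of cells with Slc32a1, with exact 95% intervals, which goes up in order from 42.7% to 80.5% with depth; right, pooled level in CPM with exact Poisson intervals (counting error only), which lies between 53.4 and 69.8.

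No gene passed the test between Slc32a1-zero and Slc32a1-positive cells. On 12 plates, the edgeR test called 0 of 4236 genes (0% in either direction), 177 had an unadjusted p under 0.05, and DESeq2 called 0, while 2 genes were called with no filter on low counts. Slc17a6, which helped to define the classes these cells came from, summed to 63.5 CPM in Slc32a1-zero cells (182 UMIs in 11 cells) and 4.39 CPM in Slc32a1-positive cells (28 UMIs in 11 cells). Gad1 averaged 513 ± 126 CPM in Slc32a1-zero cells and 567 ± 100.95 CPM in Slc32a1-positive cells (log2 −0.19 ± 0.12, adjusted p = 0.995). Gad2 averaged 647 ± 229 and 796 ± 236 CPM in the same order, with a log2 fold change of −0.31 ± 0.13 (adjusted p = 0.995) and 9 of 12 plates lower. Abat averaged 193 ± 75.7 and 208 ± 39.0 CPM (−0.17 ± 0.18, adjusted p = 0.995). None of the tested lineage factors, vesicle partners or pathway genes passed, and the 2 lineage factors tested had a median of −0.20 beside −0.03 over all genes. The groups were drawn by a gene detected at a few UMIs, so an absence of calls does not show that the 2 sets of cells are alike.

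Slc6a11, of GABA uptake, averaged 4.26 ± 4.83 CPM in Pmch cells (n = 13 plates), 2.09 ± 3.55 CPM in remaining cells (n = 17), 5.39 ± 11.6 CPM in Slc17a6-leading cells (n = 10) and 6.00 ± 3.17 CPM in Hcrt cells (n = 19). At equal depth it was seen in 7.46% of Pmch, 2.68% of remaining, 2.08% of Slc17a6-leading and 8.47% of Hcrt cells, against 1 of 68 qRNA wells. It lay under the filter on low counts in all the comparisons. Without that filter it was lower in remaining than in Hcrt cells (−2.34 ± 0.55, adjusted p = 0.000395, lower in 15 of 17 plates), and not called in Pmch over Hcrt cells (−0.64 ± 0.55, adjusted p = 0.756).

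Since Slc6a11 is an astrocyte gene, glial markers were read in the same cells. Astrocyte markers summed to 124 CPM in the 161 Hcrt cells with Slc6a11 and 118 CPM in the 904 without it. Most of this was Aldoc, which is also found in neurons, with 990 of 1145 and 4577 of 5246 UMIs in the same order. Aqp4, Gja1 and Gfap had 3, 2 and 3 UMIs in the 161 cells, beside 309 UMIs of Slc6a11, and 37 of them had at least 3 UMIs of Slc6a11. None of the 24 wells outside the neuron gate held Slc6a11. Among the glial and vascular lists, the astrocyte list was highest in only 6 of these wells and the oligodendrocyte list in 13. These wells therefore say little about astrocytes, and the source of the Slc6a11 UMIs was not tested.

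Abat was found in most cells of each class, at 85.1% of Pmch, 79.3% of remaining, 68.8% of Slc17a6-leading and 78.5% of Hcrt cells at equal depth. Its level averaged 137 ± 54.6 CPM in Pmch cells, 198 ± 51.0 CPM in remaining cells, 150 ± 82.3 CPM in Slc17a6-leading cells and 133 ± 17.6 CPM in Hcrt cells. It passed the edgeR test in none of the 7 comparisons. In remaining over Hcrt cells the log2 fold change was 0.15 ± 0.10 (adjusted p = 0.262), whereas limma on the means of per-cell CPM gave 0.52 (adjusted p = 0.00105) with a median over all genes of 0.08. In Pmch over Hcrt cells it was −0.02 ± 0.13 (adjusted p = 0.912), a value whose sign changed between settings.

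By level, Gad1 runs from remaining and Pmch, which did not differ beyond their spread, through Slc17a6-leading to Hcrt cells, and these last 2 did not differ by the test. Gad2 runs from remaining through Slc17a6-leading and Hcrt cells, which did not differ by the test, to Pmch cells. Slc32a1 averaged 53.7 CPM in the remaining class and at most 1.80 CPM in any other. Across 59 sums of a class on a plate, which share plates and the composition of 4 classes, the genes most like Gad1 among 6522 were Gfra1 (Pearson r = 0.83 on log2(CPM + 1)), Cartpt (0.81), Cpne5 (0.81), Pls3 (0.79) and Rasd2 (0.78). Those most like Gad2 were Serpine2 (0.88), Dlx1 (0.87), Arhgap6 (0.87), Nts (0.86) and Irs4 (0.86). Slc32a1 was most like Gsx1 (0.93), Dlx1 (0.93), Ecel1 (0.90), Gad2 (0.86) and Mc4r (0.86). Gad1 and Gad2 had r = 0.30, and Abat had r = 0.37 with Gad1, 0.46 with Gad2 and 0.45 with Slc32a1. For Slc6a11 the highest were Bcap29 (0.58), Erp29 (0.56), Rfx4 (0.55), Ccdc74a (0.54) and Twf1 (0.53), and for Abat Efr3a (0.70), Stim2 (0.69), Tnik (0.67), Herc2 (0.65) and Rnf112 (0.65).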

How the data were processed

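Single hand-picked cells of the LHA were sequenced by Smart-SCRB in plates of 96 wells, and 19 plates were read. The deposited counts are whole-number counts per gene and well, made by the authors, and the submitters' processing notes name STAR and STARsolo, both 2.7.5c, after cutadapt 2.1.0, with the GRCm38 build. How molecular identifiers were collapsed and whether strand was used is not given in the sources used here. A deposited well table gives, as a percent, each well's ERCC share from the authors; it was not used in a test. Library totals use mouse genes only; spike-ins and added sequences took 3.35% of the counts of LHA wells.

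Counts were summed per plate and class (at least 3 cells) and compared with the edgeR 4.0.16 quasi-likelihood test in R 4.3.3, with TMM scaling, filterByExpr and plate as a block, and Benjamini-Hochberg adjustment over all genes tested at 0.05. Each plate holds both classes compared, which pairs them by design. Genes that define a comparison were left out of its calls. The scripts were tested on simulated data. DESeq2 1.42.0 and limma 3.58.1 (log2 of mean CPM + 1) served as alternatives. Cells were thinned without replacement with a fixed seed. Intervals are exact (Clopper-Pearson or Poisson, 95%) and cover counting error only. The genes, lists and limits were chosen with earlier results of these data known. The 5 genes are named in every comparison, and from each other list up to 4 called genes by size of change. In the comparisons within Hcrt and within Gad-positive cells the rule also takes, per direction, the 8 largest called changes of at least 1 on the log2 scale, where the higher class reached 20 CPM, with 1 direction in at least 80% of plates, mitochondrial and predicted genes left out. Doublets were not called, since cells were picked singly by hand, and 78 wells under 1000 genes were left out. Some genes that the naming rule takes are not reported here.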

Additional observations from a re-analysis of the deposited data

Results flagged for a closer look

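In Slc17a6-leading cells, the plate of replicate 12 stood apart from the other 9 plates for Gad2, at 251 CPM against 86.9 CPM on the next highest. The same plate held the Slc32a1 of this class on plates with at least 3 cells, at 17.95 CPM against 0 on the others, which is 2 UMIs in 1 cell. For Gad2, 1 cell held 25 of the 28 UMIs on this plate, and the class had 80. Of 5 groups examined in this way, all in Slc17a6-leading cells, 2 had such a plate. Chance marks about 1 in 20 groups of normally spread values, which a group with 9 of 10 plates at 0 does not have. The other classes have more plates than the rule covers and were not examined. Without replicate 12 the log2 fold change of Gad2, remaining over Slc17a6-leading cells, was 4.72.

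In a well labelled Empty on replicate 15, genes of the set were counted well above the other wells without cells: 22 UMIs of Gad1, 45 of Gad2, 12 of Slc32a1 and 24 of Abat, with 0 of Slc6a11. The well had 100707 UMIs and 5653 genes, against 1022 UMIs in the next deepest such well. It is not among the LHA wells and enters no comparison.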

How the results depend on the processing

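Of the alternatives run on the results that answer a comparison, 151 left them on the same side of the threshold or within 1.5 times the count, 23 moved a count or share and 2 ended a call; none reversed one. The other results were single genes, shares and levels, and the call counts of the Gad1-only and Gad2-only comparisons. For these 14 alternatives ended a call, 21 made one and 28 moved a value, most of them such a call count. Calls in Pmch over Hcrt cells (2386) became 3679 with no filter on low counts and 1341 with cells thinned to 18000 UMIs. Pmch over remaining cells (1453) gave 2434 with limma on mean cell CPM, 907 with at least 5 cells per plate and class, and 664 with thinned cells. Remaining over Hcrt cells (3459) gave 2212 with thinned cells. Remaining over Slc17a6-leading cells (60) gave 125 with DESeq2, 182 with no filter, 163 with limma, 38 with at least 5 cells, 30 with thinned cells and 39 with peptide limits of 5% and 0.5%. Slc17a6-leading over Hcrt cells (972) gave 1602 with no filter, 600 with at least 5 cells and 387 with thinned cells. Gad2-positive over Gad2-zero Hcrt cells (80) gave 161 with DESeq2, 230 with no filter, 235 with limma, 20 with at least 5 cells, 52 with thinned cells and 4 with positives at 5 Gad2 UMIs. Its Gad1 log2 fold change was 1.496 with at least 5 cells and 2.07 at 5 Gad2 UMIs, both past no threshold (adjusted p = 0.0573 and 0.718). Slc32a1-zero over Slc32a1-positive cells gave 2 calls with no filter. The share of remaining cells with Slc32a1 was 37.3% at 2 UMIs or more. The cause of these changes was not tested. Leaving out 1 plate at a time gave 51 (without replicate 4) to 83 calls in the Gad2 comparison. Without the replicate block the counts, in the order above, were 2598, 1414, 3726, 61, 1343, 71 and 0, and Gad1 in Slc17a6-leading over Hcrt cells passed (1.55); it changed no other call of the 5 genes. The median log2 fold change of all genes moved with limma from −0.11 to −0.35 in Pmch over Hcrt cells, from −0.04 to −0.41 in Pmch over remaining cells and from 0.05 to 0.53 in remaining over Slc17a6-leading cells. The share of Hcrt cells with Gad1 was 21.4% unthinned, beside 15.5% thinned, so shares of genes seen at few UMIs move with depth.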
